A study of Mus musculus with 8 samples.

Results

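The genes described here are 10 mouse genes of MHC class I antigen presentation, measured by RNA-seq in natural killer (NK) cells from lung and spleen. They were chosen by gene symbol alone, with no measured value in the rule, and are 10 of the 48321 genes listed in the count files. The set holds the heavy chains *H2-K1*, *H2-D1*, *H2-Q4*, *H2-Q7*, *H2-T22* and *H2-T23*, their light chain *B2m*, and the peptide loading genes *Tap1*, *Tap2* and *Tapbp*. All 10 passed the filter on low counts that left 12595 genes for testing, although *H2-Q4* rested on only 9 to 98 reads per library.

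A class I molecule is a heavy chain bound to beta-2 microglobulin, which holds a short peptide at the cell surface. Peptides made by the proteasome enter the endoplasmic reticulum through the TAP transporter, a dimer of *Tap1* and *Tap2*, and tapasin (encoded by *Tapbp*) ties the empty heavy chain to TAP until a peptide is bound. NK cells carry class I themselves and also read it on other cells through inhibitory Ly49 and CD94/NKG2A receptors, and interferons and NF-kB are well known to raise transcription of these genes.

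The study asked how an enhancer of the chemokine gene *Ccl5* acts in NK cells. RNA was taken from NK cells of C57/Bl6 mice that had been freshly sorted as CD45+ TCRb- NK1.1+, and 8 libraries were sequenced, 2 for each of 4 groups. The groups were lung Wt, lung KO, spleen Wt and spleen KO, in which Wt mice had no engineered allele and KO mice (*Ccl5* ΔPE/ΔPE) were homozygous for a deletion of the proximal enhancer *Ccl5-PE* made in the germline with 2 guide RNAs. The deletion is therefore present in every cell of the KO mice and not only in NK cells, and nothing was given to the mice or cells of any group. The labels give no age or sex per library, the study used mice of both sexes from weeks to months old, and the sources used here do not say how many mice or founder lines stood behind a library, so that p-values measure the spread between these libraries, which may be technical.

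Between 3132963 and 26482366 reads were counted on genes per library, and a level is given in CPM, which are reads scaled by TMM to a common library total. Before TMM scaling, 3 reads made 0.113 CPM in the deepest and 0.958 CPM in the shallowest library. These limits cover counting error only. *Ccl5* itself checked the genotype labels. In lung it was counted at 19518 and 18350 CPM in Wt against 2992 and 3195 CPM in KO, and in spleen at 16679 and 15664 CPM against 2676 and 2432 CPM. The surfactant gene *Sftpc*, made by alveolar epithelium, gave 152.2 to 282.0 CPM in the 4 lung libraries and no read in the 4 spleen libraries, and *Cdh5* of endothelium gave none in spleen either. The NK gene *Ncr1* gave 2801 to 3456 CPM in all 8 libraries, and the biological coefficient of variation common to all genes came to 2.50%.

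The promoters of the heavy chain genes are shown because they set members of the family apart by sequence alone. A promoter window ran from 250 bases before to 50 bases after a start site (RefSeq, GRCm38.p6). Windows were held for 9 of the 10 genes, all except *Tap2*. The windows of *H2-K1*, *H2-D1*, *H2-Q4* and *H2-Q7* each held a match to the NF-kB letters GGGNNTTCC followed by a match to the interferon response element letters GAANNGAAA on the opposite strand, both in capitals here with 10 bases on either side. *H2-K1* lies on the minus strand (chr17:34000419-34000468), *H2-D1* (chr17:35262913-35262962), *H2-Q4* (chr17:35379434-35379482) and *H2-Q7* (chr17:35439012-35439060) on the plus strand, and each is written 5′ to 3′ along its gene.
H2-K1: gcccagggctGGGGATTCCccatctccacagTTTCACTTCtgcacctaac
H2-D1: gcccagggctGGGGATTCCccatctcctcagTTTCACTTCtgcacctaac
H2-Q4: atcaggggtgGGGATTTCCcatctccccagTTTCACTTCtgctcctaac
H2-Q7: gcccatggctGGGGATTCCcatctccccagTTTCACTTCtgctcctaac

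The matches were 12 bases apart in *H2-K1* and *H2-D1* and 11 bases apart in *H2-Q4* and *H2-Q7*, and they did not overlap. Searched on both strands, the NF-kB letters occurred in 5.82% and the interferon letters in 7.52% of 32851 promoter windows of the same length. The windows of *H2-T22*, *H2-T23*, *B2m*, *Tap1* and *Tapbp* held neither run of letters. The RUNX letters TGTGGT, which occurred in 16.8% of all windows, were found among these genes only in the window of *Tapbp*. A match describes the letters and not a bound site.

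The most abundant of the 10 transcripts per length was *B2m*, followed by the classical heavy chains *H2-D1* and *H2-K1*. On the scale of CPM per kilobase of exon in lung Wt, *B2m* stood at 6586 ± 479 (SD, n = 2 libraries), *H2-D1* at 897.5 ± 22.04 and *H2-K1* at 677.1 ± 1.39. *Tapbp* followed at 92.3 ± 4.97, then *H2-T22* at 35.4 ± 0.446, *H2-Q7* at 24.5 ± 0.236 and *H2-T23* at 19.7 ± 0.236. *Tap2* at 12.6 ± 0.933 and *Tap1* at 10.9 ± 1.003 were neighbours that differed by less than the sum of their SDs, and *H2-Q4* came last at 1.65 ± 0.643. The first 4 places were the same in every group, whereas *Tap2* moved up to 30.9 ± 1.02 in lung KO and 32.1 ± 1.74 in spleen Wt, where it could not be separated from *H2-Q7* at 30.9 ± 0.545 and 30.9 ± 2.42. Together the 10 genes took 1.04% and 1.01% of the counted reads of the lung Wt libraries, 1.31% of both lung KO libraries, 1.39% and 1.36% for spleen Wt, and 1.23% and 1.22% for spleen KO.

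**Figure D1:**
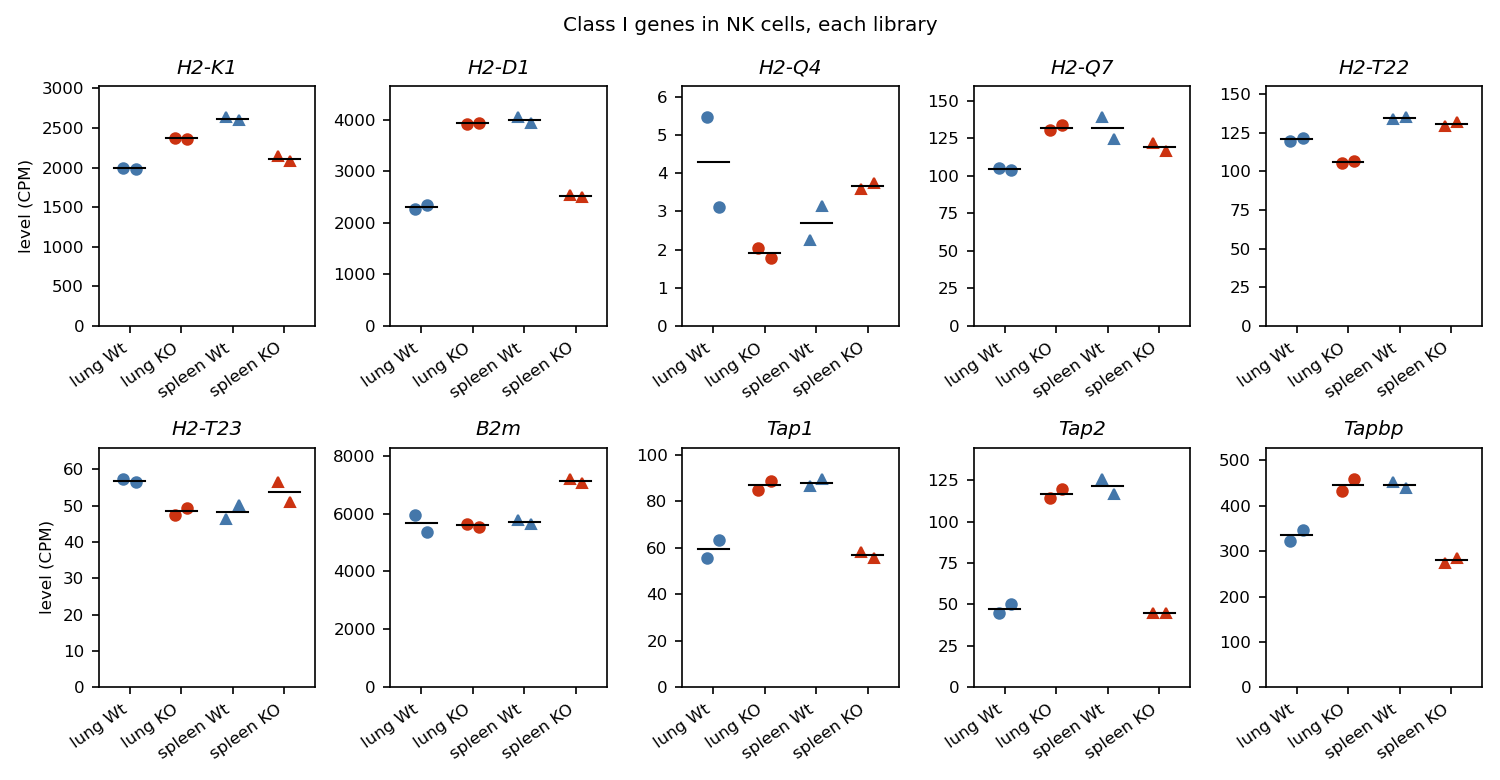
Level of each gene in each of the 8 libraries, in CPM on linear axes that start at 0. Blue marks are Wt and red marks KO, circles are lung and triangles spleen, and black lines are the means of 2 libraries. In the panels of *H2-D1*, *Tap1*, *Tap2* and *Tapbp*, lung Wt and spleen KO lie low while lung KO and spleen Wt lie high, with *Tap2* at 44.7 to 50.0 CPM in the low groups and 114.0 to 125.9 CPM in the high groups.

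Both classical heavy chains, *H2-Q7* and the 3 loading genes were higher in lung KO and lower in spleen KO than in Wt, whereas *B2m* and the other heavy chains did not follow them. In lung, 6 of the 10 genes were higher in KO than in Wt (*H2-K1*, *H2-D1*, *H2-Q7*, *Tap1*, *Tap2* and *Tapbp*) and 3 were lower (*H2-Q4*, *H2-T22* and *H2-T23*), in edgeR's quasi-likelihood test at an FDR of 0.05. In this comparison 55.6% of all tested genes were called, 29.2% higher and 26.4% lower. In spleen, *B2m* was higher in KO and 6 genes were lower, the same 6 that were higher in lung, beside 57.1% of all genes called, 28.2% higher and 28.9% lower. The median log2 fold change of the 10 genes was 0.29 in lung and -0.23 in spleen, against 0.02 and 0.00 over all tested genes. Most genes were thus called in either comparison, and the sizes below say more than the calls. With the trend of each library with GC content removed, *H2-K1* was no longer called in lung (adjusted p = 0.51) nor *H2-Q7* in spleen (adjusted p = 0.58). If a biological coefficient of variation of 0.1 was assumed, 5 of the 10 genes were called in lung and 4 in spleen, and with 0.2 these counts were 2 and 1.

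*H2-D1*, a classical heavy chain that presents peptides to CD8 T cells and is a ligand of Ly49 receptors, differed most among the well-measured heavy chains. It was counted at 2274 and 2355 CPM in lung Wt, 3916 and 3945 CPM in lung KO, 4051 and 3948 CPM in spleen Wt, and 2549 and 2495 CPM in spleen KO. The groups did not overlap within an organ, and the 2 lung KO libraries lay just below the spleen Wt libraries. *H2-D1* was 1.70-fold higher in KO in lung (log2 fold change 0.77 ± 0.03 SE, adjusted p = 2.1e-20, edgeR) and 1.59-fold lower in KO in spleen (-0.67 ± 0.03, adjusted p = 1.7e-18).

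*H2-K1*, the other classical heavy chain of this strain, moved in the same directions by less. Its levels were 1992 and 1986 CPM in lung Wt, 2370 and 2365 CPM in lung KO, 2635 and 2598 CPM in spleen Wt, and 2141 and 2078 CPM in spleen KO. All 4 groups were separate, with lung Wt lowest and spleen Wt highest. *H2-K1* was 1.19-fold higher in KO in lung (log2 fold change 0.25 ± 0.03 SE, adjusted p = 7.7e-08, edgeR) and 1.24-fold lower in spleen (-0.31 ± 0.03, adjusted p = 6e-10). Within a library the classical genes therefore shifted against each other. Reads of *H2-K1* per 100 reads of *H2-D1* were 87.6 and 84.4 for lung Wt, 60.5 and 60.0 for lung KO, 65.1 and 65.8 for spleen Wt, and 84.0 and 83.3 for spleen KO.

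The genes whose log2 CPM followed *H2-K1* most closely over the 8 libraries, among 5094 genes outside the set with a mean log2 CPM above 5, were *Cited2* (Pearson r = 0.995), *Ric8a* (0.992), *Add3* (0.989), *Tprgl* (0.989) and *Tollip* (0.988). The 8 points are 4 groups of 2 libraries, and this is a description only.

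The nonclassical heavy chains did not move as a block. *H2-Q7*, a Qa-2 gene, gave 105.3 and 103.9 CPM in lung Wt and 130.2 and 133.5 CPM in lung KO, with no overlap. It was 1.26-fold higher in lung KO (log2 fold change 0.33 ± 0.06 SE, adjusted p = 2.6e-05, edgeR). *H2-Q6*, another gene of the Qa region, went the other way in both organs. It gave 176.3 and 175.6 CPM in lung Wt and 152.3 and 160.1 CPM in lung KO. Its spleen levels were 149.4 and 145.2 CPM in Wt and 168.8 and 168.1 CPM in KO. The rise in lung KO was thus that of *H2-Q7* and not of the Qa genes together. In spleen *H2-Q7* gave 138.9 and 124.3 CPM in Wt and 121.8 and 116.1 CPM in KO, and the fall of 0.15 on the log2 scale (adjusted p = 0.029) rested on single libraries. Without spleen Wt replicate 1 the value was -0.08 (adjusted p = 0.28), and without spleen KO replicate 2 it was -0.10 (adjusted p = 0.44).

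*H2-T23* encodes Qa-1, the ligand of CD94/NKG2A. It was at 57.4 and 56.5 CPM in lung Wt, 47.5 and 49.5 CPM in lung KO, 46.5 and 50.1 CPM in spleen Wt, and 56.5 and 51.1 CPM in spleen KO. The lung groups were separate, while the gap between the spleen groups was smaller than the distance between the libraries of either group. *H2-T23* was 1.17-fold lower in lung KO (log2 fold change -0.23 ± 0.09 SE, adjusted p = 0.021, edgeR), a call that was lost without lung Wt replicate 1 (adjusted p = 0.15), lung KO replicate 1 (0.087) or lung KO replicate 2 (0.054). In spleen the value was 0.09 (adjusted p = 0.35).

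*H2-T22* encodes a nonclassical chain known as a ligand of some gamma-delta T cells. It gave 119.6 and 121.8 CPM in lung Wt, 105.6 and 106.8 CPM in lung KO, 134.1 and 135.1 CPM in spleen Wt, and 129.6 and 131.9 CPM in spleen KO. Lung KO lay lowest and the groups did not overlap, with a log2 fold change of -0.18 ± 0.06 (SE, adjusted p = 0.011, edgeR) in lung and -0.04 (adjusted p = 0.59) in spleen. The lung call was lost without lung Wt replicate 1 (adjusted p = 0.054), lung KO replicate 1 (0.05) or lung KO replicate 2 (0.056).

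*H2-Q4*, a little expressed gene of the Qa region, gave 44 and 12 reads for lung Wt, 10 and 13 for lung KO, 9 and 27 for spleen Wt, and 11 and 98 for spleen KO. In CPM these were 5.47 and 3.11, 2.05 and 1.77, 2.25 and 3.16, and 3.59 and 3.75. The lung Wt libraries stood apart from each other by more than lung Wt replicate 2 stood above lung KO. The log2 fold change was -1.31 ± 0.35 (SE, adjusted p = 0.0016, edgeR) in lung, and -0.72 (adjusted p = 0.27) without lung Wt replicate 1, and 0.38 (adjusted p = 0.25) in spleen.

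Heavy chain reads are partly shared, which bears on all of these genes. Of the words of 50 bases in the transcripts of each gene (GENCODE M21), 53.5% occurred also in another gene for *H2-T22*, 36.4% for *H2-Q4* and 26.5% for *H2-Q7*, but 14.5% for *H2-T23*, 12.8% for *H2-D1*, 9.63% for *H2-K1* and 0% for *B2m*. *H2-T10* alone held 31.3% of the words of *H2-T22*. Among the loading genes the share was 23.2% for *Tapbp*, 11.6% for *Tap2* and 3.33% for *Tap1*. Words were searched on both strands, so that a gene overlapping at the same place counts as another gene. Reads from such an overlap can still have a unique place. The antisense *Gm19412* covers 24.9% of the exon bases of *Tapbp*, and *A930015D03Rik* 29.4% of those of *H2-T22*. These shares thus mix overlap with copies elsewhere, and the parts are not separated here. Of the alignments tallied in counting, between 29.7% and 33.2% per library had no unique place and were not counted. Of those with a unique place, between 44.3% and 46.6% per library were counted on a gene. Values of *H2-T22*, *H2-Q4*, *H2-Q7* and *Tapbp* are therefore uncertain in a way that replicates do not show.

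*B2m*, the light chain that every class I heavy chain needs, did not follow the classical heavy chains. It was at 5955 and 5373 CPM in lung Wt and 5654 and 5548 CPM in lung KO, where the KO libraries lay between the Wt libraries. In spleen it was at 5781 and 5655 CPM in Wt and 7203 and 7071 CPM in KO, with no overlap. *B2m* was 1.25-fold higher in spleen KO (log2 fold change 0.32 ± 0.04 SE, adjusted p = 2.7e-09, edgeR), whereas in lung the value was -0.02 ± 0.04 (adjusted p = 0.71). In lung, leaving out lung Wt replicate 2 gave -0.09 (adjusted p = 0.041), leaving out lung Wt replicate 1 gave 0.06, and scaling by library totals gave 0.07, so that its sign in lung was not fixed.

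The balance of heavy to light chain transcripts differed between the groups. Reads of the 6 heavy chains per 100 reads of *B2m* were 76.5 and 86.1 for lung Wt, 116.2 and 119.0 for lung KO, 121.2 and 121.3 for spleen Wt, and 69.4 and 69.0 for spleen KO. The high groups and the low groups did not overlap, and these ratios do not depend on how libraries were scaled. They do pair genes of unlike GC content, 54.3% in *H2-K1* and 55.85% in *H2-D1* against 41.2% in *B2m*. With the GC trend removed, log2 fold changes of KO against Wt in lung were 0.03 for *H2-K1*, 0.50 for *H2-D1* and 0.10 for *B2m*. In that fit *H2-K1* in lung thus no longer rose against *B2m*. In spleen the values were -0.13, -0.43 and 0.19. *H2-D1* made most of the difference, with 38.2 and 43.8 reads per 100 reads of *B2m* for lung Wt, 69.3 and 71.1 for lung KO, 70.1 and 69.8 for spleen Wt, and 35.4 and 35.3 for spleen KO. For *H2-K1* the same ratio was 33.5 and 37.0, 41.9 and 42.6, 45.6 and 45.9, and 29.7 and 29.4.

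**Figure D2:**
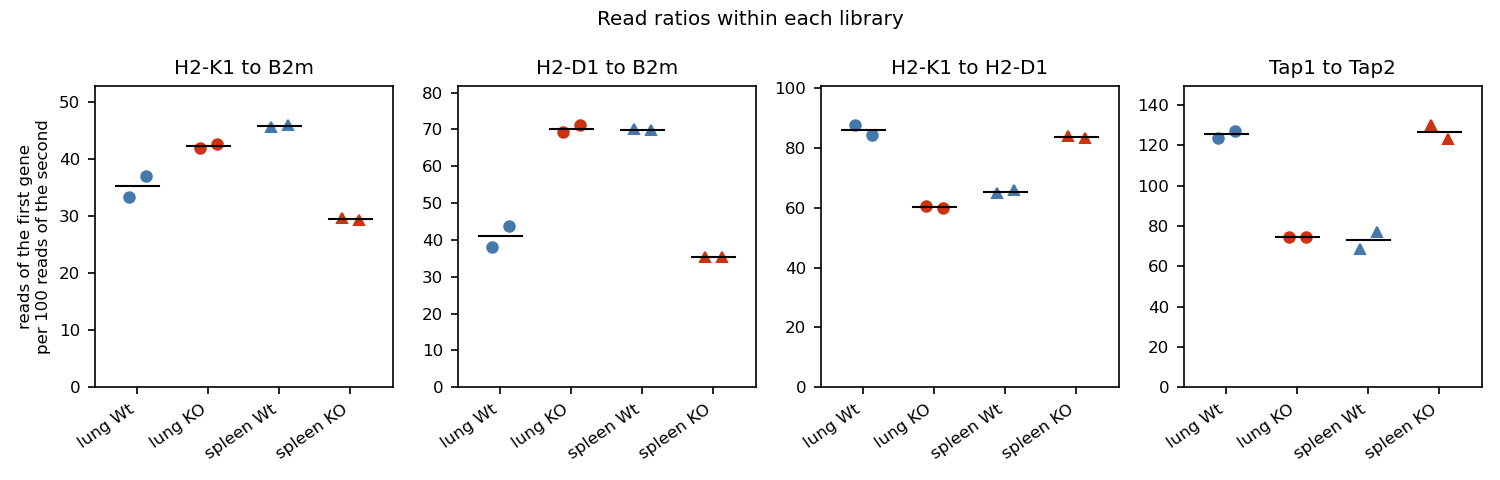
Reads of the first gene per 100 reads of the second within each library, on linear axes that start at 0, with blue for Wt, red for KO, circles for lung, triangles for spleen and black lines for means of 2 libraries. *H2-D1* against *B2m* is at 35.3 to 43.8 in lung Wt and spleen KO and at 69.3 to 71.1 in lung KO and spleen Wt, and *Tap1* against *Tap2* divides the groups the other way, at 123.2 to 129.9 and 68.7 to 77.0.

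Among the loading genes, *Tap2* differed most of the 9 genes with more than 100 reads in every library. It was at 45.0 and 50.0 CPM in lung Wt, 114.0 and 119.5 CPM in lung KO, 125.9 and 116.6 CPM in spleen Wt, and 44.7 and 45.1 CPM in spleen KO. No library of a high group came near a low group, and the high groups overlapped each other. *Tap2* was 2.50-fold higher in lung KO (log2 fold change 1.33 ± 0.07 SE, adjusted p = 2.9e-17, edgeR) and 2.67-fold lower in spleen KO (-1.41 ± 0.07, adjusted p = 1e-19).

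*Tap1*, which pairs with *Tap2* in the transporter, was at 55.7 and 63.5 CPM in lung Wt, 84.7 and 89.0 CPM in lung KO, 86.4 and 89.7 CPM in spleen Wt, and 58.1 and 55.5 CPM in spleen KO. The groups were ordered as for *Tap2* but lay closer together. *Tap1* was 1.49-fold higher in lung KO (log2 fold change 0.58 ± 0.08 SE, adjusted p = 4.5e-08, edgeR) and 1.58-fold lower in spleen KO (-0.66 ± 0.07, adjusted p = 1.6e-10). The transcripts of the dimer therefore changed in ratio, with 123.8 and 126.9 reads of *Tap1* per 100 reads of *Tap2* for lung Wt, 74.3 and 74.5 for lung KO, 68.7 and 77.0 for spleen Wt, and 129.9 and 123.2 for spleen KO.

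Genes that overlap the loading genes on the opposite strand limit these values, because the sources used here do not say whether counting used strand. *Tap2* (chr17:34203527-34216321, GRCm38) shares 14.1% of its exon bases with the noncoding *Gm15821* and 4.36% with the antisense *Gm20496*. *Gm15821* was at 13.7 and 11.7 CPM for lung Wt, 33.2 and 31.8 for lung KO, 30.2 and 27.8 for spleen Wt, and 8.49 and 11.1 for spleen KO, and its log2 fold changes of 1.32 in lung and -1.41 in spleen were close to those of *Tap2*. *Gm20496*, the most counted of them, gave -0.11 and 0.11. Without strand, reads from *Tap2* and from these genes cannot be told apart where they overlap. Heavy chains are limited in the same way. *H2-Q4* shares 19.1% of its exon bases with the antisense *Gm11131*, which had 41 to 375 reads per library. Log2 fold changes of *Gm11131* were -0.44 in lung and 0.43 in spleen, the signs of *H2-Q4*. *H2-T22* shares 29.4% with the antisense *A930015D03Rik*, which had 12 to 143 reads and values of 0.30 and -0.25, neither called.

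*Tapbp*, the tapasin gene, gave 322.1 and 347.6 CPM in lung Wt, 432.1 and 459.7 CPM in lung KO, 451.6 and 440.4 CPM in spleen Wt, and 274.2 and 286.0 CPM in spleen KO. Lung KO and spleen Wt overlapped, and both lay above lung Wt and spleen KO. *Tapbp* was 1.34-fold higher in lung KO (log2 fold change 0.43 ± 0.05 SE, adjusted p = 4e-10, edgeR) and 1.57-fold lower in spleen KO (-0.66 ± 0.04, adjusted p = 4.6e-15). It shares 24.9% of its exon bases with the antisense *Gm19412*, whose values of 1.13 and -0.65 had the same signs.

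Compared between organs, 6 of the 10 genes were called in opposite directions in Wt and KO. *H2-Q4* and *H2-T23* also changed sign, but each was called in only 1 genotype. In Wt, 7 of the 10 genes were lower in lung than in spleen and 1, *H2-T23*, was higher, beside 57% of all tested genes called, 27.7% higher and 29.3% lower in lung. In KO, 6 genes were higher in lung and 3 lower (*H2-Q4*, *H2-T22* and *B2m*), beside 65.6% called, 33.9% higher and 31.7% lower. The medians over the 10 genes were -0.35 in Wt and 0.17 in KO, against -0.01 and 0.02 over all genes. These comparisons use the same 8 libraries as those between genotypes and are no separate evidence.

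*Tap2* was 2.57-fold lower in lung than in spleen in Wt (log2 fold change -1.36 ± 0.07 SE, adjusted p = 5.2e-18, edgeR) and 2.60-fold higher in KO (1.38 ± 0.07, adjusted p = 3.2e-20). *H2-D1* was 1.73-fold lower in Wt (-0.79) and 1.56-fold higher in KO (0.64), *Tap1* was 1.51-fold lower and 1.56-fold higher, *Tapbp* was 1.34-fold lower and 1.58-fold higher, and *H2-K1* was 1.31-fold lower and 1.12-fold higher. With the GC trend removed *H2-K1* did not turn, at -0.20 in Wt and -0.05 (adjusted p = 0.16) in KO, and *H2-Q7* in KO came to 0.06 (adjusted p = 0.33). In that fit *H2-T23* was called on both sides, at 0.42 (adjusted p = 5.1e-05, edgeR) in Wt and -0.32 (adjusted p = 0.00031) in KO. *B2m* did not show this turn, with -0.01 (adjusted p = 0.8) in Wt and -0.35 (adjusted p = 1.6e-10) in KO. Among the small differences, the calls of *H2-T22* in Wt (-0.16, adjusted p = 0.017) and *H2-T23* in Wt (0.22, adjusted p = 0.022) were lost without lung Wt replicate 1 (adjusted p = 0.18 and 0.14), the first also without spleen Wt replicate 2 (0.1) and the second without spleen Wt replicate 1 (0.095). In KO, those of *H2-Q4* (-0.98, adjusted p = 0.0072) and *H2-Q7* (0.17, adjusted p = 0.0087) were lost without lung KO replicate 2 (0.11 for each) or spleen KO replicate 2 (0.18 and 0.25). *H2-Q4* in Wt (0.71, adjusted p = 0.051) passed the threshold without lung Wt replicate 2 (0.012) or spleen KO replicate 2 (0.045).

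The genotype effect itself differed between organs for 9 of the 10 genes, tested as an interaction in the same model, in which 61.6% of all genes were called, 32.5% with a higher and 29% with a lower effect in lung. The difference of the log2 fold changes, lung minus spleen, was 2.74 ± 0.10 (SE, adjusted p = 1.6e-23, edgeR) for *Tap2*, 1.43 ± 0.05 (1.3e-24) for *H2-D1*, 1.24 ± 0.10 (2.9e-13) for *Tap1*, 1.08 ± 0.06 (2.4e-17) for *Tapbp* and 0.56 ± 0.05 (7.6e-13) for *H2-K1*. *H2-T22* was the exception at -0.14 ± 0.08 (adjusted p = 0.12), and *B2m* went the other way at -0.34 ± 0.05 (6.7e-07). The median over the 10 genes was 0.52, against 0.03 over all genes.

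GC content moved with these differences. Exons of the 10 genes held 41.2% GC in *B2m* and between 50.6% (*H2-T22*) and 57.1% (*Tapbp*) in the others. When the trend of each library with GC content was removed, *H2-K1* in lung fell to 0.03 (adjusted p = 0.51), *Tapbp* in lung to 0.12 (adjusted p = 0.013) and *Tap1* in lung to 0.31, and *H2-D1* came to 0.50 in lung and -0.43 in spleen. In spleen, *H2-K1* came to -0.13, *Tap1* to -0.43, *Tapbp* to -0.38 and *H2-Q7* to -0.04 (adjusted p = 0.58). *Tap2* kept 1.02 in lung and -1.15 in spleen. The Qa-1 gene *H2-T23* became -0.46 in lung and 0.27 in spleen (adjusted p = 0.0021), *H2-T22* in lung -0.28, *H2-Q7* in lung 0.17, and *B2m* 0.10 in lung (adjusted p = 0.014) and 0.19 in spleen. *Tap2*, *Tap1*, *Tapbp* and *H2-D1* thus kept their directions and calls in both organs. The interactions shrank to 0.93 for *H2-D1*, 0.74 for *Tap1*, 0.50 for *Tapbp*, 0.21 for *H2-Q7* (adjusted p = 0.024) and 0.15 for *H2-K1* (adjusted p = 0.0027), while that of *Tap2* was 2.17 and that of *H2-T23* -0.74. The interaction of *B2m* was -0.09 (adjusted p = 0.11) in this fit, and that of *H2-T22* was -0.31 (adjusted p = 0.00077).

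**Figure D3:**
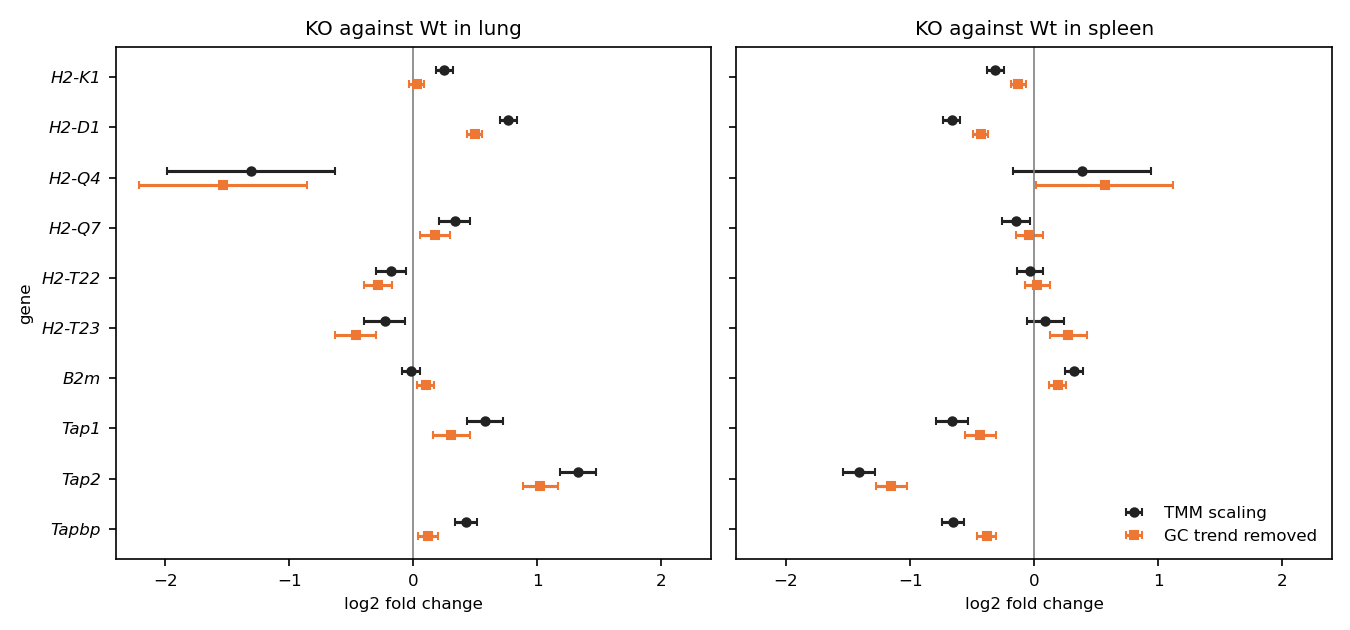
Log2 fold change of KO against Wt for each gene in lung and in spleen, as scaled by TMM (black circles) and after removal of the GC trend (orange squares). Bars span 1.96 standard errors on either side. *Tap2* is at 1.33 and -1.41 by TMM and at 1.02 and -1.15 without the GC trend, whereas *H2-K1* in lung moves from 0.25 to 0.03.

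Transcripts of other cells and of NK cells themselves also differed between the groups. The sum of 4 epithelial markers was 252.6 and 251.3 CPM in lung Wt, 356.1 and 394.7 CPM in lung KO, and at most 0.651 CPM in spleen. The 4 endothelial markers summed to between 17.9 and 30.2 CPM and the 4 stromal markers to between 4.91 and 6.84 CPM in lung, and both lists were at 0 in spleen. Summed over 6 B cell markers, lung Wt had 296.0 and 307.7 CPM, lung KO 248.1 and 252.6, spleen Wt 517.1 and 531.1, and spleen KO 631.7 and 617.0, nearly all of it *Ighm*, while *Pax5* gave at most 0.749 CPM. The 8 T cell markers summed to between 325.9 and 633.6 CPM, the 7 myeloid markers to between 20.0 and 41.6 CPM with *Adgre1*, *S100a8* and *S100a9* at 0, and the 5 erythroid and platelet markers to between 43.4 and 52.1 CPM in lung and 1.25 and 2.87 CPM in spleen. The 6 NK markers together were high where *H2-D1* and *Tap2* were low and low where these were high, at 23892 and 23562 CPM for lung Wt, 18512 and 18798 for lung KO, 19013 and 18860 for spleen Wt, and 24578 and 24014 for spleen KO. *Nkg7* made the largest part of this sum, with group means of 12934, 9087, 8837 and 12442 CPM in that order, and *Ncr1* and *Klrb1c* followed the sum. Not all of the 6 did so. *Eomes* had group means of 198.1, 203.1, 201.4 and 223.8 CPM. *Klrk1* had 3176, 2733, 3122 and 3827 CPM, and its lung Wt and spleen Wt libraries overlapped. *Tbx21*, the NK transcription factor T-bet, was at 216.1 and 221.5 CPM in lung Wt, 477.9 and 480.1 CPM in lung KO, 341.5 and 331.1 CPM in spleen Wt, and 149.8 and 147.5 CPM in spleen KO. Like *Tap2* it was higher in lung KO and spleen Wt than in lung Wt and spleen KO, but lung KO lay above spleen Wt with no overlap. In bulk RNA, fewer cells of a type and less RNA per cell cannot be told apart, and the part of these transcripts in the class I differences was not tested.

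Other genes of the pathway were counted by lists. Their values are given as scaled by TMM only, without removal of the GC trend. Over all tested genes, 29.2% were called higher and 26.4% lower in lung KO, and 28.2% and 28.9% in spleen KO. Each list below stands beside these shares. Of the 11 chaperones and trimming enzymes, 3 were higher and 3 lower in lung KO, and 2 were higher and 4 lower in spleen KO, with medians of 0.02 and 0.03. *Tapbpl*, which encodes the tapasin relative TAPBPR, moved like *Tapbp*, at 0.65 (adjusted p = 2.2e-09, edgeR) in lung and -0.24 (0.00066) in spleen. *Canx*, encoding calnexin, which holds new heavy chains, moved the other way at -0.65 (1.9e-17) and 0.39 (2.2e-11). Exons held 53.3% GC in *Tapbpl* and 42.2% in *Canx*.

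The 5 genes of the immunoproteasome and its activator, which produce peptides for class I, had the opposite signs from TAP where they were called. In lung KO none was higher and 2 were lower, and in spleen KO 4 were higher and none was lower, with medians of -0.05 and 0.17. The activator subunit *Psme2* was at -0.38 (adjusted p = 2.3e-08, edgeR) and 0.33 (1.3e-07), and the catalytic subunit *Psmb8* at -0.14 (0.0036) and 0.18 (8.2e-05). *Psmb9* lies head to head with *Tap1* on the opposite strand and gave -0.05 (0.53) in lung and 0.16 (0.014) in spleen. Its direction was thus not that of *Tap1*.

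Of 15 regulators of class I transcription, 6 were higher and 2 lower in lung KO, and 2 were higher and 8 lower in spleen KO, with medians of 0.13 and -0.21. *Rela*, the NF-kB subunit p65, was at 37.1 and 40.7 CPM in lung Wt, 74.7 and 78.0 CPM in lung KO, 67.7 and 75.5 CPM in spleen Wt, and 36.2 and 40.5 CPM in spleen KO. As for *Tap2*, lung KO and spleen Wt overlapped and lay above lung Wt and spleen KO, with log2 fold changes of 0.9995 (adjusted p = 2.8e-12, edgeR) and -0.87 (3.6e-12). Exons of *Rela* held 59.4% GC, more than those of *Tapbp* (57.1%), and the part of GC content in its likeness to *Tap2* was not tested. *Stat2*, of the interferon signalling complex, was at 0.44 (0.0031) and -1.53 (1.4e-13). *Irf1*, an interferon-induced activator, was at 0.49 (2.2e-08) in lung and 0.07 (0.3) in spleen. *Nlrc5*, the transactivator of class I genes, was at 42.2 and 39.6 CPM in lung Wt, 29.3 and 37.7 CPM in lung KO, 35.2 and 32.1 CPM in spleen Wt, and 42.4 and 44.2 CPM in spleen KO, so that lung KO and spleen Wt lay below the other groups.

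A broad list held 12 receptor genes, of Ly49, CD94/NKG2 and other families, and not every gene on it is known to bind class I. Of these, 10 were tested, and 1 was higher and 8 lower in lung KO. In spleen KO 7 were higher and 1 lower, and the medians were -0.25 in lung and 0.34 in spleen. The Ly49 gene *Klra9* was at -0.56 (adjusted p = 8.4e-15, edgeR) in lung and -0.11 (0.019) in spleen, and *Klra7* at -0.28 (3.1e-08) and 0.56 (1.2e-15). *Lilrb4a* was higher in both, at 0.50 (0.0044) and 0.75 (7.1e-07). Exons of these 10 receptor genes held between 35.8% (*Klrd1*) and 45.1% GC (*Cd160*). Among the 10 class I and loading genes, all but *B2m* held more.

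Of 24 further class I heavy chains, 17 were listed in the files and 10 passed the filter on low counts, and 3 were higher and 1 lower in lung KO, and 3 higher and 2 lower in spleen KO, with medians of 0.12 and -0.11. *H2-Q2* had 3 and 1 reads in lung Wt and 8 and 14 in lung KO (adjusted p = 0.0019, edgeR). *H2-M3*, which presents formylated peptides, was at -0.01 (adjusted p = 0.88) in lung and 0.46 (2.8e-09) in spleen, and *H2-T10* was at 0.24 (0.21) and -0.55 (0.00026).

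Of 11 MHC class II genes, which mark B cells and antigen-presenting cells, 9 were tested, and 6 were higher in KO and none lower in each organ. Their summed level was 96.2 and 89.9 CPM in lung Wt, 218.2 and 199.7 CPM in lung KO, 498.8 and 503.5 CPM in spleen Wt, and 675.4 and 658.6 CPM in spleen KO. *H2-Ab1* was at 1.83 (adjusted p = 1.5e-11, edgeR) in lung and -0.04 (0.61) in spleen. *H2-DMb2* had no read in lung Wt and 2 and 5 reads in lung KO, at least 2.27-fold higher when lung Wt is set to the floor of 3 reads over the group, and with this bound the median over the 9 genes in lung was 1.18. The order of the groups for the summed class II level was thus lung Wt, lung KO, spleen Wt and spleen KO, and not that of *H2-D1* or *Tap2*. *Cd74* made the largest part of the sum, with group means of 34.8, 101.2, 292.6 and 414.5 CPM in that order. Some single genes did not keep it. *H2-DMb1* was at 5.6, 13.1, 12.1 and 11.8 CPM, and the little counted *H2-Eb2* at 0, 1.87, 1.13 and 0.18 CPM.

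**Figure D4:**
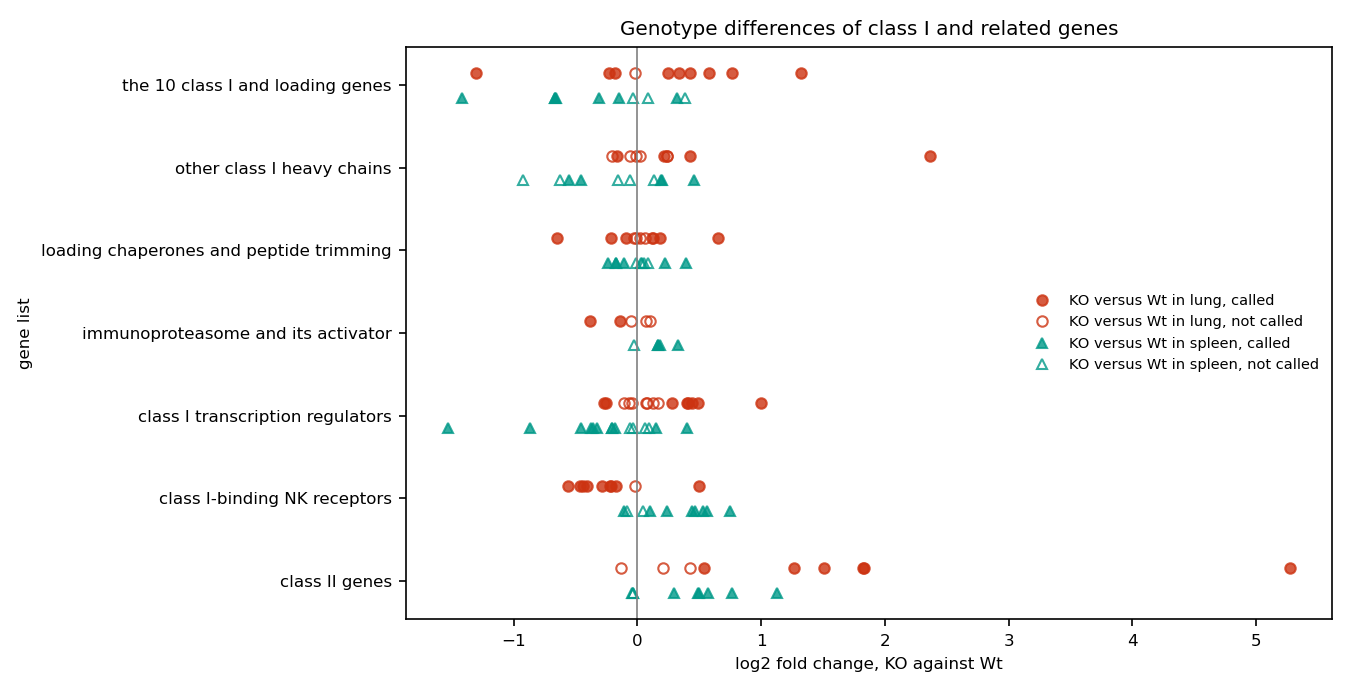
Log2 fold change of KO against Wt for the 10 genes and for each gene tested in 6 related lists, in lung (red circles) and spleen (green triangles), filled where the gene was called at an FDR of 0.05. The receptors lie mostly left of 0 in lung (8 lower) and right of 0 in spleen (7 higher), and the point at 5.27 is *H2-DMb2*, which had no read in lung Wt.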

How the data were processed

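The authors aligned reads of 50 bases to mm10 with HISAT2 2.1.0, counted them on genes with HTSeq (0.11.1 in the submitters' processing notes) and deposited the raw counts, 1 file per library. The strand setting and annotation of the counting are not given in the sources used here. Depth ran from 3132963 to 26482366 counted reads. The analysis used edgeR 4.0.16 (R 4.3.3). Genes were kept by filterByExpr, libraries were scaled by TMM, and all 8 libraries entered a fit of group means. Groups were compared by the quasi-likelihood test, with p-values adjusted over 12595 genes (Benjamini-Hochberg) and called at 0.05. Standard errors were derived from the F statistic. CPM used TMM-scaled totals.

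The members and lists were chosen with earlier results of these data known. Named were all 10 genes, *Ccl5*, genes of the lists with the largest called differences, and the 5 genes most like *H2-K1*. Genes outside this rule (*Nlrc5*, *Psmb9*, *H2-M3* in lung, *H2-Q6*, *Cd74*, *H2-DMb1*, *H2-Eb2*, *Nkg7*, *Klrb1c*, *Eomes*, *Klrk1* and the overlapping genes) were chosen after their values were seen.

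GENCODE M21 (GRCm38) gave positions, exon length and GC content, matched by name for 46394 symbols and by synonym for 597, with GC content for 99.3% of tested genes. Promoters came from RefSeq.

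Alternatives were scaling by RLE or by library totals, dropping the filter, a minimum of 10 counts in each library, only the 4 libraries compared, a replicate block within each organ or (added after the data were seen) within each genotype, removal of the GC trend (a spline with 5 degrees of freedom) with and without these blocks, leaving out 1 library at a time, an assumed coefficient of variation (0.1 or 0.2), and DESeq2 1.42.0. All steps were tested on simulated data.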

Additional observations from a re-analysis of the deposited data

Results flagged for a closer look

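The size of the KO effect depended on the organ for 9 of the 10 genes, by the interaction term of edgeR's quasi-likelihood test over all genes. The difference of the log2 fold changes, lung minus spleen, was 0.56 for *H2-K1*, 1.43 for *H2-D1*, 0.48 for *H2-Q7*, 1.24 for *Tap1*, 2.74 for *Tap2* and 1.08 for *Tapbp*. It was -1.69 for *H2-Q4*, -0.32 for *H2-T23* and -0.34 for *B2m*. With the GC trend removed the values were 0.15 for *H2-K1*, 0.93 for *H2-D1*, 0.21 for *H2-Q7*, 0.74 for *Tap1*, 2.17 for *Tap2* and 0.50 for *Tapbp*, all still called, -2.10 for *H2-Q4* and -0.74 for *H2-T23*, also called, and -0.09 for *B2m*, which was not. The call of *H2-Q4* was lost without lung Wt replicate 1 (-1.11, adjusted p = 0.11), and so was that of *H2-T23* (-0.31, adjusted p = 0.064). The term was called for 61.6% of all genes. Groups of 2 libraries are too small to test a single library as an outlier.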

How the results depend on the processing

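A few signs turned, and the cause was not tested. *B2m* in lung was 0.073 by library totals, 0.10 with the GC trend removed with or without the replicate block, and -0.092 to 0.057 when 1 library was left out. *B2m* between organs in Wt was 0.0048 by RLE, 0.0044 by DESeq2 and -0.079 to 0.071 when 1 library was left out. With the GC trend removed, *H2-T22* in spleen became 0.025 (0.022 with the block) and *H2-K1* between organs in KO became -0.049 (-0.0495 with the block, -0.0507 with a block within each genotype). The interaction of *H2-T22* became 0.017 by library totals. All other log2 fold changes of the 10 genes kept their sign under every alternative run. Some calls were lost, under DESeq2 for 10 of the 50 values.

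Counts of all genes called fell in lung from 7000 to 4507 by DESeq2, 4395 with an assumed coefficient of variation of 0.1 and 1557 with 0.2. In spleen they fell from 7195 to 4165, 4112 and 1144, and lay between 4393 (without spleen KO replicate 2, the deepest library) and 7266 when 1 library was left out. Between organs in Wt they were 4673 and 2011 with the assumed coefficients, in KO 2316 with 0.2, and for the interaction 2017 with 0.2. Of the 10 genes, 5 and 2 were called in lung with 0.1 and 0.2, 4 and 1 in spleen, 5 and 2 between organs in Wt, and with 0.2 also 1 between organs in KO and 4 for the interaction. Scaling by library totals moved the share of higher genes among those called from 52.5% to 63.3% in lung, from 48.6% to 36.9% between organs in Wt and from 52.9% to 63.5% for the interaction, and the median of all genes by 0.09, -0.11 and 0.16.

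Nothing in the labels says that equal replicate numbers pair the libraries. Over 5103 genes, deviations from the group mean correlated at -0.01 in lung and 0.17 in spleen between Wt and KO libraries of the same number, and at 0.00 in Wt and -0.08 in KO between lung and spleen libraries. With a replicate block within each organ, 7012 genes were called in lung, 7298 in spleen, 7235 between organs in Wt and 8085 in KO, and 7724 for the interaction. A block within each genotype, added after the data were seen, gave 6943 between organs in Wt and 8049 in KO. Neither block changed a call of the 10 genes. Depth limits *H2-Q4*, with 9 to 98 reads.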
